A study of Ovis aries with 6 samples.

Results

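The genes described here are 5 that act in glucose uptake and in the response to low oxygen: the glucose transporters SLC2A1 and SLC2A3, the arrestin TXNIP, the transcription factor EPAS1 and the stress-induced inhibitor DDIT4. They were selected by their measured difference between the cells compared here, so their values are given as a description, with no test. Every probe whose name or description on the array names one of them was taken, which gave 11 of the 15008 gene probes and 5 of the 922 gene symbols that could be assigned. The array names several of them by older names, GLUT-1 for SLC2A1, VDUP1 for TXNIP and, for 2 of the 4 EPAS1 probes, EPAS.

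The samples were cultures of sheep (Ovis aries) cells. One group consisted of skin epidermal stem cells and the other of corneal epithelia cells, the lining of the front of the eye, with 3 samples each that the series' design text calls cell lines. No treatment other than detachment with trypsin for RNA extraction is given for either group, and glucose, oxygen and culture density are not stated in the material used. Each sample was hybridised to 1 single-colour Agilent array. Nothing in the labels ties the 3 samples of a group to separate animals, so the p-values cover the spread among these arrays alone, and that spread may be technical.

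Between 11091 and 12414 of the 15208 gene spots of an array were well above background, and no spot was saturated. The epidermal arrays were in slide row 1 and the corneal ones in slide row 2, so the effect of the row and that of the cells cannot be told apart. Whether all arrays shared a single slide was not checked. Markers of the labelled epithelial identity were mostly at or near background. KRT5, KRT14 and TP63 were not measured (fewer than 3 arrays well above background), while KRT15 reached that level on all 3 epidermal arrays but on 1 corneal array. The corneal minus epidermal difference of KRT15 was −0.14 on the log2 scale and did not pass (limma adjusted p = 0.4). PAX6 was higher in corneal cells by 0.30 on the log2 scale (limma adjusted p = 0.0132). All 8 measured mesenchymal markers were well above background on all 6 arrays, with VIM and DCN the brightest, at 8.66 and 8.08 in epidermal and 8.60 and 8.14 in corneal cells. Of the 8, FN1 was higher in corneal cells, by 0.95, and 4 were lower, with changes of −4.51 for COL3A1, −0.55 for COL1A1, −0.52 for PDGFRA and −0.40 for LUM. The part of cell type makeup in the results below was not tested. In such bulk cultures fewer cells of a type and less RNA per cell cannot be told apart.

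Glucose enters most cells by facilitated diffusion through the SLC2A (GLUT) family, of which SLC2A1 and SLC2A3 are the widely used basal carriers. TXNIP is an alpha arrestin that binds thioredoxin and promotes the removal of glucose transporters from the cell surface, and its own transcription rises with glucose through the factors MLX and MLXIP. When oxygen falls, hypoxia inducible factors, made of an oxygen-regulated alpha subunit such as HIF1A or EPAS1 (HIF-2 alpha) and the shared partner ARNT, switch on genes of glucose uptake, glycolysis, vessel growth and iron handling. SLC2A1, SLC2A3 and DDIT4 are known targets of these factors, and DDIT4 (REDD1) restrains the growth kinase complex mTORC1 through TSC1 and TSC2.

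All values below are log2 signals relative to the 75th percentile of the same array, and a change is the corneal minus the epidermal mean. Signals are compared between arrays for one probe and not between probes. SLC2A1, SLC2A3 and EPAS1 had more signal in corneal cells and TXNIP and DDIT4 less: 8 member probes were higher and 3 lower, and for 0 of the 11 did the 2 groups of arrays overlap. All 11 passed the filter on dim probes, which required 3 or more of the 6 arrays, of whichever group, to be well above background. Over all 11742 probes that passed it, 59.8% differed between the cells with a limma adjusted p under 0.05, 26.4% higher and 33.4% lower in corneal cells. Because the members were chosen from this contrast, nothing is read from their count against that share. The share of all kept probes without overlap was not computed, so nothing is read from the lack of overlap either.

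**Figure D1:**
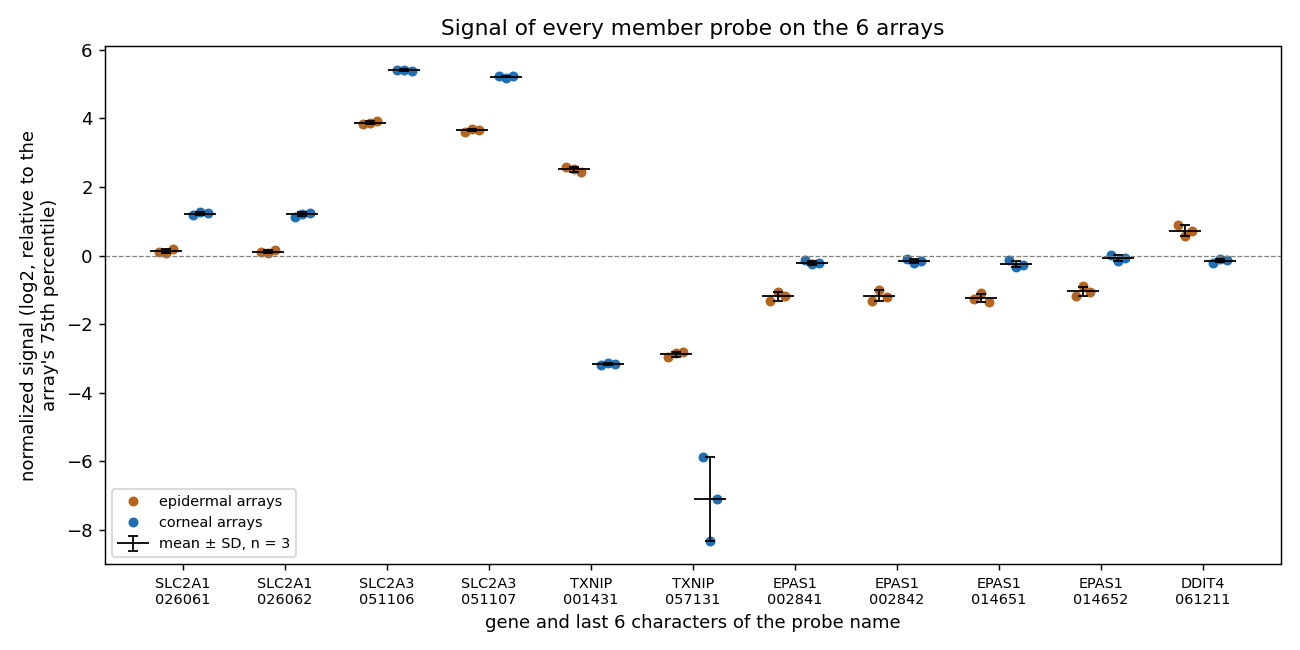
Normalized signal (log2, relative to the array's 75th percentile) of the 11 member probes on the 3 epidermal and 3 corneal arrays, with mean ± SD as bars. The groups are apart for every probe, by 5.57 for the first TXNIP probe and by 0.68 for DDIT4, and the corneal arrays are widely spread (SD 1.22) only for the second TXNIP probe. How many of all kept probes are apart in this way was not computed, so nothing is read from it.

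SLC2A1 encodes GLUT1, the carrier found in nearly all proliferating cells and in barrier tissues such as the cornea. On its probe A_70_P026061 the epidermal arrays stood at 0.10, 0.08 and 0.19 and the corneal arrays at 1.17, 1.26 and 1.23. The lowest corneal array was 0.98 above the highest epidermal array. The means were 0.13 ± 0.06 and 1.22 ± 0.04 (SD, n = 3), a change of 1.10, or 2.14-fold. The second probe, A_70_P026062, is the same sequence moved by 1 base and sits on its own spot, and it gave a change of 1.09. The pair therefore repeats 1 measurement rather than adding a second site of the transcript. The first 30 bases of the second probe are printed to show the target, with the base that the first probe lacks in capitals. All 3 forward reading frames of both probes hold a stop codon.

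SLC2A1 A_70_P026062: Taatctgtaggggcggactatgactaagga

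SLC2A3 encodes GLUT3, a carrier of high affinity for glucose. It is known from neurons and, in ruminants, the placenta. On its probe A_70_P051106 the epidermal arrays stood at 3.83, 3.87 and 3.91 and the corneal arrays at 5.42, 5.42 and 5.38. Both groups were tight, with SDs of 0.04 and 0.02. The change was 1.53, or 2.89-fold. The other SLC2A3 probe lies 156 bases away in the same transcript without shared bases, and it is thus a separate site. It read 3.62, 3.69 and 3.67 in epidermal and 5.23, 5.19 and 5.22 in corneal cells, a change of 1.56 or 2.95-fold. The 2 sites differed by 0.03 in their change, less than the SD of 0.04 between epidermal arrays. Both sites are late in the transcript, starting at bases 3740 and 3584 of the array's reference entry. Their first 30 bases show that they are distinct targets.

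SLC2A3 A_70_P051106: ggaatttttcccagttctcagtgaccaggt
SLC2A3 A_70_P051107: attttggttctaagttctcaccattccctc

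The processed signal of SLC2A3 on the scanner's linear scale ran from 14019.1 to 15671.7 on the epidermal and from 36989.9 to 38658.4 on the corneal arrays for the first site. That of SLC2A1 ran from 1016.6 to 1179.4 and from 2036.1 to 2164.0. No spot of either transporter was saturated or near background in either group.

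Of 17 other glucose and hexose carriers in the list used, 5 had a named probe and 4 passed the filter. SLC2A4, the insulin-regulated carrier GLUT4 of muscle and fat, went the opposite way to the 2 members, from −2.45 ± 0.07 to −3.35 ± 0.18 (SD, n = 3). Its change of −0.89 ± 0.10 (SE) had a limma adjusted p of 0.000587, and its other probe gave −1.20. SLC2A8, an intracellular carrier, had a change of 0.05 ± 0.03 (adjusted p = 0.17), which passed with median centring (0.08, adjusted p = 0.0403) and was −0.12 without scaling (adjusted p = 0.204). SLC2A2, the carrier of liver, had a change of −0.31 ± 0.31 (adjusted p = 0.418). The fructose carrier SLC2A5 had a change of 0.36 ± 0.13 (adjusted p = 0.0629), and it passed under several other settings, among them quantile normalization (0.59, adjusted p = 0.0143). The sodium-coupled carrier SLC5A1 was not well above background on any array. The list thus gave 0 rises and 1 fall among 4 genes, with a median change of −0.13 against −0.05 over all probes that passed the filter.

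**Figure D2:**
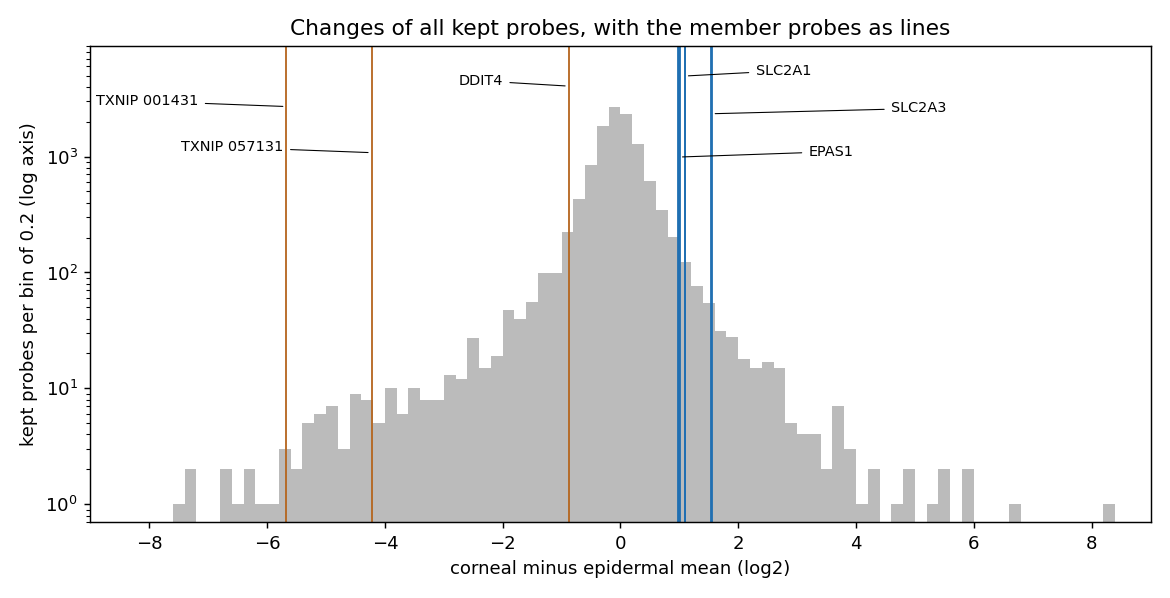
Histogram (log count axis, bins of 0.2) of the corneal minus epidermal change of all 11742 kept probes, with each member probe as a vertical line, blue where higher and brown where lower in corneal cells. The first TXNIP probe lies in the lower tail, at rank 13 from the bottom, while SLC2A1, SLC2A3 and EPAS1 lie on the upper shoulder and DDIT4 on the lower.

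TXNIP had the largest change of the 5 genes. On probe A_70_P001431 the epidermal arrays stood at 2.58, 2.53 and 2.44 and the corneal arrays at −3.18, −3.13 and −3.16. The groups were 5.57 apart, with SDs of 0.07 and 0.02. The change was −5.67, so the signal was 51-fold higher in epidermal than in corneal cells. On the linear scale the processed signal was 6551.0, 5534.9 and 5280.0 in epidermal and 99.7, 103.1 and 99.2 in corneal cells, well above background on all 6 arrays. This was rank 13 of the 11742 kept probes, counted from the most negative change.

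The second TXNIP probe, A_70_P057131, was designed to a clone described as the 3' untranslated region of VDUP1 and shares no stretch of sequence with the first. It was dim, with processed signals between 134.3 and 141.7 in epidermal cells. Its normalized values were −2.95, −2.84 and −2.82 in epidermal and −5.87, −8.31 and −7.11 in corneal cells. Only the first of these corneal values was well above background, and the corneal SD was 1.22. The change was −4.22, at rank 54 from the bottom. It was −3.62 and −4.84 at the extremes when single arrays were left out, −1.88 with normexp background correction, which adds an offset to the signals, and −1.33 with normexp when spots of very high local background were left out. The direction of the 2 TXNIP probes was the same, but only the first was well above background on all 6 arrays. Its corneal signals were also low, between 99.2 and 103.1, so its size too rests in part on dim spots. With normexp its change was −4.69, and −4.88 when spots of very high local background were left out. The starts of both targets are shown to let the 2 sites be told apart.

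TXNIP A_70_P001431: tacagaattctgcatttctgacactgatca
TXNIP A_70_P057131: ggcttttaagacctctggtggggcacagtt

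TXNIP acts on thioredoxin, so the redox genes around it were read from a list of 31 alpha arrestins and thioredoxin system genes. Of these 7 had a named probe, and all 7 passed the filter and the limma test, 2 higher and 5 lower in corneal cells. The other arrestins, MLX and MLXIP were not analysed here. Thioredoxin itself, TXN, changed from 5.16 ± 0.04 to 5.00 ± 0.03 (SD, n = 3), a change of −0.16 (adjusted p = 0.0115), and its reductase TXNRD1 by −0.62 (adjusted p = 5.98e-05). The glutaredoxins GLRX and GLRX2 changed by −0.34 (adjusted p = 0.000686) and −0.21 (adjusted p = 0.00313), and the thioredoxin-like TXNDC17 by −0.22 (adjusted p = 0.0018). The rises were TXNDC12, a thioredoxin-like protein of the endoplasmic reticulum, with 0.51 (adjusted p = 0.000112), and the peroxidase PRDX2 with 0.16 (adjusted p = 0.0143). PRDX2 turned to −0.01 without scaling between arrays, which shifts the median change of all probes by −0.17. With the replicate numbers as a block TXN and PRDX2 had adjusted p of 0.052 and 0.0571. The median of the list was −0.21, and its largest fall, that of TXNRD1, was far smaller than that of TXNIP.

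EPAS1 encodes HIF-2 alpha, the oxygen-regulated subunit first described in endothelium. It was measured by 4 probes, 2 in each of 2 clones of its coding sequence, with the probes of a pair moved by 1 base. They are printed in full, since they show that the 4 readings come from 2 sites, and capitals mark the base not shared within a pair. The sites share no stretch of sequence, and at least 1 forward reading frame is open in each.

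EPAS1 A_70_P002841: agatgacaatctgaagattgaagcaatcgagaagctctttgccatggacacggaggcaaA
EPAS1 A_70_P002842: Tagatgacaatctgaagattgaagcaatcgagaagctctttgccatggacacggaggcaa
EPAS1 A_70_P014651: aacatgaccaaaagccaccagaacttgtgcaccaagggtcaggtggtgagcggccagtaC
EPAS1 A_70_P014652: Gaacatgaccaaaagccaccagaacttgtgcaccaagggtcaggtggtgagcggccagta

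On A_70_P014652, the brightest of the 4, the epidermal arrays stood at −1.17, −0.89 and −1.07 and the corneal arrays at 0.02, −0.16 and −0.06. On A_70_P002841, of the other site, they stood at −1.33, −1.06 and −1.19 and at −0.14, −0.24 and −0.23. At both sites the second epidermal array was the highest of its group and the first corneal array the highest of its own. The changes were 0.98 and 0.99, and over the 4 probes they ran from 0.98 to 1.01, or from 1.97-fold to 2.02-fold. The range over the probes, 0.03, was smaller than the SD between epidermal arrays, which reached 0.16. The smallest gap between the groups on any of the 4 probes was 0.73.

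EPAS1 is a marker of endothelium as well as a hypoxia factor, and the endothelial list gave these values beside it. Of its 9 genes with a probe, PECAM1, CDH5 and TEK were not well above background on any array, and KDR was so on 2 epidermal arrays and 0 corneal arrays. Of the 5 measured, 0 were higher and 3 lower in corneal cells, but VWF and TIE1, 2 of the 3, passed the filter through their epidermal arrays alone. The third, FLT1, was well above background on all 6 arrays. EGFL7 and ENG, the brightest, had changes of 0.25 (limma adjusted p = 0.103) and 0.19 (adjusted p = 0.167). ENG and EGFL7 were well above background on all 6 arrays. The part of endothelial cells in the EPAS1 values was not tested.

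The partners and regulators of EPAS1 went both ways. Of 9 measured genes of the list of hypoxia inducible factors, their partners and oxygen sensors, 2 were higher and 2 lower in corneal cells, and the median change was 0.02. HIF1A, the other main alpha subunit, was lower, from −0.87 ± 0.12 to −1.15 ± 0.02 (SD, n = 3), with a difference of −0.28 ± 0.06 (SE, limma adjusted p = 0.0113). Its second probe gave −0.31. ARNT, the shared beta subunit, had a change of −0.28 ± 0.06 (adjusted p = 0.0103), with −0.36 on its other probe. Its call ended under normexp that left out spots of very high local background (−0.10, adjusted p = 0.104). EPAS1 and HIF1A thus had changes of opposite sign. HIF3A, an alpha subunit that can act as an inhibitor, did not pass, with 0.23 ± 0.36 (adjusted p = 0.606) and probes between −0.23 and 0.23.

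CITED2, a competitor of these factors for the coactivators EP300 and CREBBP, rose by 0.28 ± 0.05 (adjusted p = 0.0029), and its 3 probes ran up to 0.78. Its call ended without scaling (0.12, adjusted p = 0.244). RBX1, a subunit of the ubiquitin ligase that acts with VHL, rose by 0.65 ± 0.03 (adjusted p = 1.71e-05). The prolyl hydroxylase EGLN2 (0.10, adjusted p = 0.269), VHL (−0.23, adjusted p = 0.502), CREBBP (0.02, adjusted p = 0.682) and SIAH1 (−0.05, adjusted p = 0.563) did not pass. EGLN2 did pass without epidermal replicate 2 (0.16, adjusted p = 0.0395), as did SIAH1 (−0.14, adjusted p = 0.0414), and VHL passed without corneal replicate 2 (−0.53, adjusted p = 0.0336).

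DDIT4 was measured by a single probe, named from a description that gives its bovine protein. Its epidermal arrays stood at 0.90, 0.59 and 0.71 and its corneal arrays at −0.20, −0.10 and −0.14. The epidermal arrays were the more spread, with an SD of 0.16 against 0.05 (the medians over all kept probes were 0.06 and 0.05), and the lowest of them was 0.68 above the highest corneal array. The change was −0.88, so the signal was 1.84-fold higher in epidermal cells. DDIT4 is induced by hypoxia, and its change was opposite in sign to those of SLC2A1 and EPAS1. The start of its target is given for the identity of this only probe.

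DDIT4 A_70_P061211: agtaatcaagaagaactgtacagctcggag

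DDIT4 is also driven by ATF4 in the integrated stress response and by glucocorticoids, and it acts on mTORC1. Of 4 measured genes of the ATF4 list, 3 were higher and 1 lower in corneal cells: ATF4 itself by 0.30 (limma adjusted p = 0.000438), the amino acid carrier SLC7A5 by 0.75 (adjusted p = 2.55e-05) and the factor CEBPB by 0.42 (adjusted p = 0.000355), while DDIT3 (CHOP) changed by −0.50 (adjusted p = 0.00106). The call of ATF4 ended without scaling (0.14, adjusted p = 0.104). Of 4 measured genes of the glucocorticoid list, the receptor NR3C1 was higher by 0.35 (adjusted p = 0.0023), and 2 were lower. HSD11B1, which makes active cortisol from cortisone, changed from 2.18 ± 0.05 to 0.37 ± 0.00 (SD, n = 3), by −1.81 (adjusted p = 1e-06). NFKBIA, an inhibitor of NF-kappa B, changed by −0.16 (adjusted p = 0.0345), a call that ended with median centring (adjusted p = 0.0689), without the filter (0.0529) and when single arrays were left out in 4 of 6 cases. Of 6 measured mTORC1 genes, MTOR (0.37, adjusted p = 0.000213) and its substrate kinase RPS6KB1 (0.25, adjusted p = 0.00752) were higher and 0 were lower, with a median of 0.00. RPS6KB1 did not pass without scaling (0.08, adjusted p = 0.392). TSC2, through which DDIT4 acts, had a change of −0.04 (adjusted p = 0.403).

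Genes that hypoxia is known to induce were split in direction. Among the members that are such targets, SLC2A1 and SLC2A3 had changes above 0 and DDIT4 one below 0. Of 11 measured outside glycolysis, 6 were higher and 5 lower in corneal cells, with a median of 0.36. The largest rises were those of the iron carrier TF (1.96, limma adjusted p = 6.61e-06), the vasoconstrictor peptide gene EDN1 (1.88, adjusted p = 5.31e-05) and the vasodilator peptide gene ADM (0.57, adjusted p = 5.38e-05). EDN1 was well above background on 2 epidermal arrays. The brighter probe of the chemokine CXCL12 was not well above background on any corneal array. Its signal was at least 32.8-fold lower there, the bright group against the lowest signal that counts as above background. The other CXCL12 probe gave a change of −3.41, so the bound holds for the brighter probe alone. CXCL12 passed the filter through its epidermal arrays alone, so its place among the 5 falls is no independent support for their number. Its receptor CXCR4 fell by 2.55 (adjusted p = 2.21e-06), and the VEGF receptor FLT1 by 0.64 (adjusted p = 0.000972), a call that ended under normexp that left out spots of very high local background (−0.07, adjusted p = 0.245).

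In glycolysis and lactate handling 5 of 7 measured genes were higher and 0 lower in corneal cells, with a median of 0.36. Over all kept probes 26.4% were higher and 33.4% lower, and nothing is read from the count of so short a list. The largest rises were those of PFKL, a phosphofructokinase subunit, with 0.90 (limma adjusted p = 0.000117), of the enolase ENO3 with 0.55 (adjusted p = 0.00012) and of lactate dehydrogenase LDHA with 0.47 (adjusted p = 4.7e-05). The second probe of PFKL gave 1.29, so its 2 probes lay on either side of the SLC2A1 change, and the changes of ENO3 and LDHA were smaller than those of both transporters. The call of the lactate carrier SLC16A1 (0.28, adjusted p = 0.0446), also among the 5, ended without scaling (adjusted p = 0.214), without the filter (0.0658) and when single arrays were left out in 4 of 6 cases. In the pentose phosphate and glycogen list 4 of 9 measured genes were higher and 4 lower, with a median of −0.02. PYGB, a glycogen phosphorylase, had a change of 0.47 (adjusted p = 0.0339), the pentose enzyme TALDO1 0.40 (adjusted p = 9.68e-05) and PYGL, the glycogen phosphorylase of liver, 0.34 (adjusted p = 0.000261). PYGL did not pass without scaling (0.18, adjusted p = 0.0755). PYGB did not pass without scaling or the filter, or when single arrays were left out in 5 of 6 cases. PCK1 (−0.81, adjusted p = 0.0175), FBP2 (−0.62, adjusted p = 0.000547), both of glucose synthesis, and PGD (−0.61, adjusted p = 1.87e-05), of the pentose pathway, were the largest falls. The PCK1 call ended without epidermal replicate 3 (adjusted p = 0.0584), and the second PCK1 probe gave −0.02.

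Over all these pathway lists 61 genes other than the 5 members were measured, of which 25 were higher, 20 lower and 16 did not pass. The called share was 73.8% beside 59.8% over all probes, and the median change was 0.05. The share of the lists takes the kept probe of highest mean for each gene, while that over all probes counts every kept probe. The lists were also chosen with earlier results known, so nothing is read from the difference.

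**Figure D3:**
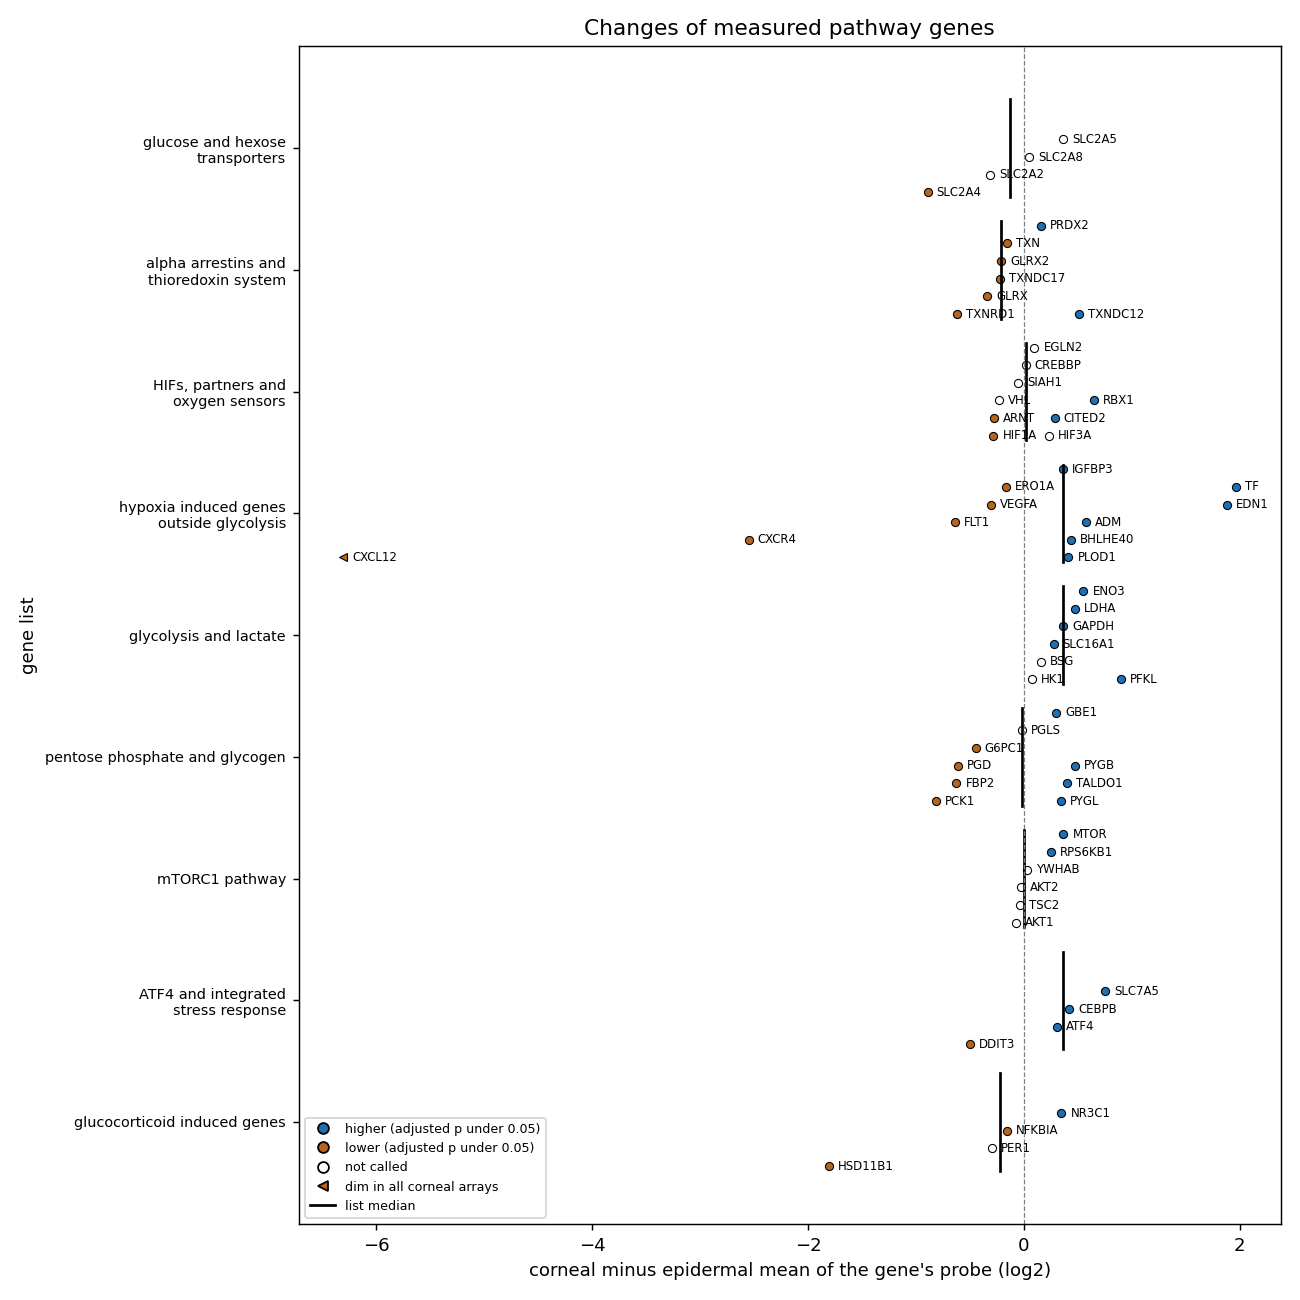
Corneal minus epidermal change (log2) of each measured gene of the 9 pathway lists, filled blue or brown where limma's adjusted p was under 0.05 and white where it was not, with the list median as a black bar. Most genes lie between −1 and 1, CXCL12 (a triangle, dim on all corneal arrays) and CXCR4 lie far to the left, and the medians run from −0.22 to 0.36.

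The named probes whose 6 centred values lay nearest to those of each member were found by Euclidean distance over the 6 arrays. With 2 groups this mostly picks probes with a change of the same size and sign. For SLC2A1 they were CNN1, GGTA1 and PGR, at distances of 0.10, 0.10 and 0.10 and with changes of 1.07, 1.12 and 1.06. For SLC2A3 they were PTGS2, BMP4 and IGFBP2, at 0.08, 0.10 and 0.16 and with changes between 1.53 and 1.54. Among the 1044 named probes compared with it, TXNIP had no near neighbour. The closest were COL3A1 (0.57, change −5.33), XDH (0.65, change −5.20) and a second COL3A1 probe (0.67). Probes without a gene name were not compared. EPAS1 was nearest to AHR, a factor of the same bHLH-PAS family, at 0.12 with a change of 0.98, and then to 2 probes of IGFBP4 at 0.19 and 0.20. DDIT4 was nearest to ATP5MC1 (0.17, change −0.93), to HOXA4 (0.18, change −0.997), which was well above background on 3 arrays, and to a second ATP5MC1 probe (0.18).

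**Figure D4:**
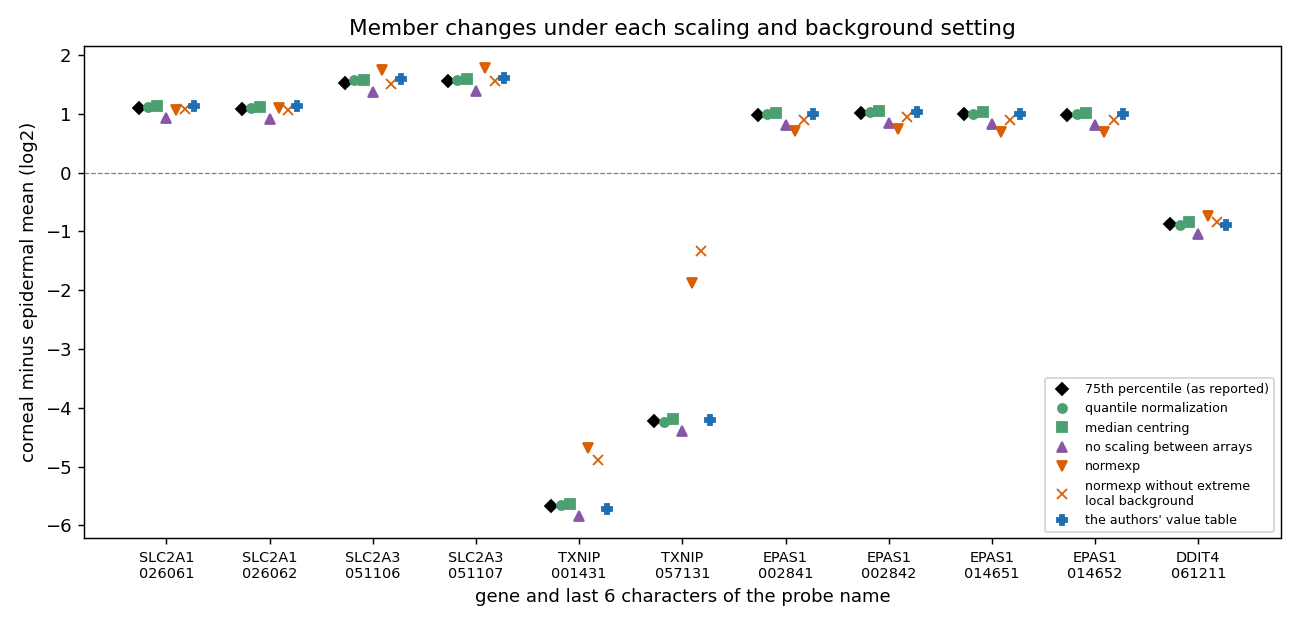
Change of each member probe (log2) under the reported scaling and under 6 other settings of normalization and background. Every point of a probe stays on its side of 0, and the second TXNIP probe moves most, from −4.22 to −1.33.

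The changes of the members kept their sign under each alternative that could be computed, 15 for each of 10 probes and 14 for the second TXNIP probe. Most of these could not turn a sign. Another filter or the replicate block leaves the change itself as it was. Leaving out an array cannot turn it where the groups do not overlap. Only the settings of scaling and background, and the authors' table, could have done so. SLC2A1 on its main probe ran from 0.93 without scaling to 1.14, and SLC2A3 from 1.37 to 1.74. The first TXNIP probe ran from −5.84 to −4.69, the brightest EPAS1 probe from 0.69 to 1.01, and DDIT4 from −1.05 to −0.74. Leaving out single arrays moved SLC2A1 between 1.08 and 1.13, SLC2A3 between 1.51 and 1.55, EPAS1 between 0.91 and 1.05 and DDIT4 between −0.95 and −0.79.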

How the data were processed

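RNA of 3 epidermal and 3 corneal samples was labelled with Cy3 and hybridised to 1 sheep array each. The submitters' processing notes name Agilent Feature Extraction 10.7. Spot values are deposited as linear intensities, and the processed signal is background-subtracted per the file headers. A second deposited table holds log2 values, with a median of 7.23 in each column and correlations of at least 0.999 with the log2 signal of the same array. How the authors made it is not stated in the material used, and it served as an alternative.

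Each array's 75th percentile was taken from its log2 processed signal, control and outlier spots were dropped, and repeated spots of a probe were averaged. Of 15008 probes, 11742 well above background on at least 3 arrays were kept. The test was limma's (3.58.1, in R 4.3.3), with Benjamini-Hochberg adjustment over all of them and a threshold of 0.05. The kept probe of highest mean stood for its gene. The test alone was also run on simulated data in which few of the probes were changed. That run left out scaling and background, so it says nothing about those steps. Gene names came from the array's columns and sheep RefSeq genes (ARS-UI_Ramb_v3.0, with no use of coordinates). Of 1491 named probes, 745 matched by accession, 534 by symbol, 126 by gene ID, 20 by synonym, 17 by older name and 49 by description.

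Members and lists were chosen with earlier results of these data known. The rule named every member probe, every measured gene of the lists of transporters, arrestins and thioredoxin, and hypoxia inducible factors, of each other pathway list up to 3 called genes of largest change in each direction, of marker lists the 2 of highest level, and the 3 named probes nearest each member. TSC2, EPAS1's endothelial context (PECAM1, CDH5, TEK, KDR), TP63, KRT5, KRT14, SLC16A1, VWF, TIE1, and FN1, COL3A1, COL1A1, PDGFRA and LUM of the mesenchymal list were named outside it, after their values were seen. Other marker lists gave 0 higher and 1 lower of 2 immune genes (CD14 and CD3E), 1 higher and 1 lower of 3 adipocyte genes (PLIN1 and LEP brightest) and 1 higher of 1 red blood cell gene (HBB, whose 2 probes changed by −1.44 and 1.71). Some genes of the pathway lists are not reported here and were left out of their lists and counts. Promoters were not used here.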

Additional observations from a re-analysis of the deposited data

How the results depend on the processing

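Under quantile normalization, median centring, the authors' table, no filter and signal on all 6 arrays, the counts of probes and pathway genes called in each direction stayed within 1.5 times of those reported. Without scaling 1533 probes were higher, against 3100, and 16 pathway genes, against 25. With normexp, in whose fit 8 spots of very high local background on the first epidermal array take part, 196 probes were higher and 230 lower (against 3923), and 1 pathway gene was higher and 3 lower, against 25 and 20. Leaving those spots out gave 26 and 18. Names from accessions and symbols only left 15 and 12 pathway genes, since fewer were named. The share of calls that were higher was 44.1%, against 22.5% without scaling and 53.9% with normexp without those spots.

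Among called pathway genes, the signs that turned under normexp, none passing there, were those of TXN (0.0839), GLRX2 (0.0044), BHLHE40 (−0.72), EDN1 (−0.41), PYGB (−0.0042), RPS6KB1 (−0.0149) and NFKBIA (0.0376). PRDX2 turned without scaling (−0.0114), and G6PC1 (0.0001) with normexp without those spots. Of the 16 pathway genes not called, 15 changed sign under at least 1 alternative, and 0 passed where they did. The cause was not tested.

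Same-numbered arrays of the 2 groups did not deviate together (correlations of 0.02, −0.03 and 0.04). These values gave no sign of pairing, but they cannot exclude that same-numbered samples belong together. With the replicate block 2754 probes were higher and 3519 lower, and 24 and 19 pathway genes. The probe of the lowest adjusted p for each gene gave 25 and 20 pathway genes. Search of promoters for motifs was not run. For dim probes, such as the second for TXNIP, signal over background limits the size of a change.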
